A study of Mus musculus with 25 samples.

Results

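The genes described here are the 10 enzymes that turn cholesterol into conjugated bile acids: Cyp7a1, Cyp8b1, Cyp27a1, Cyp7b1, Hsd3b7, Akr1d1, Amacr, Acox2, Slc27a5 and Baat. They were taken by symbol from a table of 37117 gene symbols. All 10 passed the filter on low counts, among 12970 genes tested. Sequencing of transcript 3′ ends gave their RNA levels in sorted mouse hepatocytes, in 25 libraries that form 7 groups. YAP is a growth-promoting transcriptional coactivator, which the kinases LATS1 and LATS2 hold inactive.

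Livers with YAP switched on came from mice of the strain ApoE-rtTA, TRE-hYAP, in which the ApoE sequence drives a doxycycline-dependent activator and that activator drives human YAP. They had received doxycycline for 1 week, at 0.2 mg/ml in water with 2.5% sucrose (ApoYap Dox, n = 3), and were set against untreated mice of the same strain (ApoYap ctrl, n = 4). Mice with floxed alleles of both kinases (Lats1flox/flox; Lats2flox/flox) had received, 1 week before, an adeno-associated virus with Cre under the hepatocyte promoter TBG (Lats1/2 KO, n = 3), and were set against untreated floxed mice (Lats1/2 flox ctrl, n = 4). C57BL/6 mice, BL/6 in the labels, were sampled after 1 week of the same doxycycline (BL/6 Dox, n = 4), 24 hours after the Cre virus (BL/6 AAV-Cre, n = 3) and untreated (BL/6 ctrl, n = 4). The virus control was therefore taken earlier than the knockout. The labels used here give neither age nor sex. Nothing in them ties each replicate to its own animal, so p-values measure the spread between these libraries, which may be technical. The untreated ApoYap mice carry the transgene too, and 500000 sorted cells went into each library.

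Bile acids are made in hepatocytes by a classic and an alternative route. In the classic route, CYP7A1 hydroxylates the ring of cholesterol first and sets the rate, and CYP8B1 adds the hydroxyl group that distinguishes cholic acid. In the alternative route, CYP27A1 oxidises the side chain first and CYP7B1 then hydroxylates the ring. Both routes share HSD3B7 and AKR1D1, which remodel the ring, and AMACR and ACOX2, which prepare the side chain for shortening in peroxisomes. SLC27A5 attaches coenzyme A to bile acids, and BAAT transfers taurine or glycine to acids activated with coenzyme A. Bile acids shut off their own synthesis through the receptor FXR (Nr1h4), SHP (Nr0b2) and, indirectly, FGFR4 with its partner KLB. HNF4A and NR5A2 bind and activate genes of the classic route.

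The promoters of 5 of the 10 enzymes were found in the RefSeq table for GRCm38.p6. The 250 bases before the starts of Cyp8b1 and Hsd3b7 are shown because these held a searched motif. The Cyp8b1 sequence lies at chr9:121916306-121916555 on the minus strand and the Hsd3b7 sequence at chr7:127800359-127800608 on the plus strand, both written 5′ to 3′ with matches in capitals.
Cyp8b1: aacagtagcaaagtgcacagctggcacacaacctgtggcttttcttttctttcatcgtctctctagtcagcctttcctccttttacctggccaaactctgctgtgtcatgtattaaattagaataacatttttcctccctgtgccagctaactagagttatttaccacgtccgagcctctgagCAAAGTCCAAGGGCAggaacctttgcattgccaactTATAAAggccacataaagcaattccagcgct
Hsd3b7: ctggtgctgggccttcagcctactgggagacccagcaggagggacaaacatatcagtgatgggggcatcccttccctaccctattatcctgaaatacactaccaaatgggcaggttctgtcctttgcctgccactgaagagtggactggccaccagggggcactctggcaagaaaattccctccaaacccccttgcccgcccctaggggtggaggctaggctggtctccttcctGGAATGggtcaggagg
The Cyp8b1 promoter held an HNF4 motif (CAAAGTCCA) that begins 67 bases before the start, overlapped by an NR5A2 motif (CAAGGNCA) that begins 60 bases before it, and a TATA box (TATAAA) at 31 bases. The Hsd3b7 promoter held the motif GGAATG of the TEAD factors, the DNA-binding partners of YAP, at 16 bases. Searched on both strands, the HNF4 motif (CAAAGTCCA or CAAAGGTCA) stood in 0.807% of 32851 promoters of this length, the NR5A2 motif in 5.53%, the TEAD motif in 12.6% and the TATA box in 12.4%. The promoters of Akr1d1, Cyp27a1 and Acox2 held none of these letters in this window. A match of letters does not show that a factor binds.

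Libraries held 8107539 to 16515330 counts. Levels are given as CPM, the counts of each library rescaled to a common total, after TMM scaling. On this scale 1 count was worth 0.0361 to 0.141 CPM. Hepatocyte markers were abundant in every library, at 74700 to 117700 summed CPM before TMM scaling. In the knockout, Lats1 was measured at 5.10, 4.79 and 2.97 CPM, against 12.3 to 14.9 CPM in floxed controls, whereas Lats2 was not called (adjusted p = 0.651). Which exons Cre removes is not stated in the labels used here, and a 3′ count may lie outside them. The YAP target Ccn2 had 160.6 to 182.3 CPM in ApoYap Dox libraries and 1.203 to 2.597 CPM in ApoYap ctrl libraries. It had 62.5 to 149.3 CPM in the knockout and 1.19 to 1.32 CPM in floxed controls. Among the knockout libraries, the third stood nearest to its controls on the first principal component of all genes.

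Marker sums of other liver cells were also higher in the ApoYap Dox and knockout libraries. Macrophage markers summed, before TMM scaling, to 15170 to 26840 CPM in the ApoYap Dox libraries and to 112.4 to 266.5 CPM in the ApoYap ctrl libraries, and all 21 were called higher. In the knockout the sum was 1077 to 2887 CPM, against 107.1 to 339.8 CPM in floxed controls, with 20 of 21 higher. Endothelial markers summed to 1984 to 3739 CPM in the ApoYap Dox libraries and to 124.9 to 320.8 CPM in the ApoYap ctrl libraries. They summed to 825.1 to 2270 CPM in the knockout, against 131.3 to 404.2 CPM in floxed controls. Stellate and fibroblast markers summed to 302.1 to 514.7 CPM in the ApoYap Dox libraries and to 64.41 to 143.1 CPM in the ApoYap ctrl libraries, with 8 of 14 called higher. In the knockout they summed to 298.8 to 985.8 CPM, against 72.13 to 85.63 CPM in floxed controls, with 13 of 14 higher. Cholangiocyte markers summed to 795.8 to 1076 CPM in the ApoYap Dox libraries and to 248 to 311.7 CPM in the ApoYap ctrl libraries. They summed to 393.4 to 749.6 CPM in the knockout, against 227 to 323 CPM in floxed controls. Of the 5 of 12 cholangiocyte markers that passed the filter, 2 were called higher and 2 lower in ApoYap Dox, and 3 higher in the knockout. Neutrophil markers summed to 22.11 to 58.06 CPM in the ApoYap Dox libraries and to 0.2566 to 1.525 CPM in the ApoYap ctrl libraries. They summed to 1.272 to 5.204 CPM in the knockout, against 0.2911 to 0.5728 CPM in floxed controls. Lymphocyte markers summed to 5.851 to 11.42 CPM in the ApoYap Dox libraries and to 0.07693 to 0.5084 CPM in the ApoYap ctrl libraries. They summed to 0.3633 to 1.676 CPM in the knockout, against 0 to 0.1058 CPM in floxed controls. None of the 21 macrophage markers was at 0 in any library, while 1 to 5 of the 8 neutrophil and 4 to 8 of the 10 lymphocyte markers were at 0 in each knockout library. The part of these cells in the enzyme values was not tested.

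All 10 enzymes fell in ApoYap Dox against ApoYap ctrl with TMM scaling, of which Acox2 turned positive with total counts alone, and Cyp8b1, Akr1d1, Acox2 and Baat with scaling to hepatocyte markers. With TMM, every treated library lay below every control for each of them, and all were called at an adjusted p under 0.05 (edgeR quasi-likelihood test). How many of all genes separate in this way was not counted. Over all genes tested, 32% were called lower and 35% higher in this comparison. The number of enzymes called lower stayed at 10 with any 1 library left out, where 3786 to 4275 of all genes were lower. The median log2 fold change of the enzymes was -2.31, beside 0.07 over all genes. They did not fall alike: Cyp7b1 was 41.9-fold lower and Acox2 1.54-fold lower. In such bulk samples, fewer hepatocytes and less RNA per hepatocyte cannot be told apart. With libraries scaled to total counts alone, 6 enzymes were called lower and Acox2 higher, beside 12.6% and 66.4% of all genes. With scaling to the 15 hepatocyte markers, which themselves were all called lower under TMM, 4 enzymes were lower (Cyp7b1, Hsd3b7, Slc27a5 and Amacr) and 3 higher (Acox2, Akr1d1 and Baat), beside 5.67% of all genes lower and 83% higher.

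**Figure D1:**
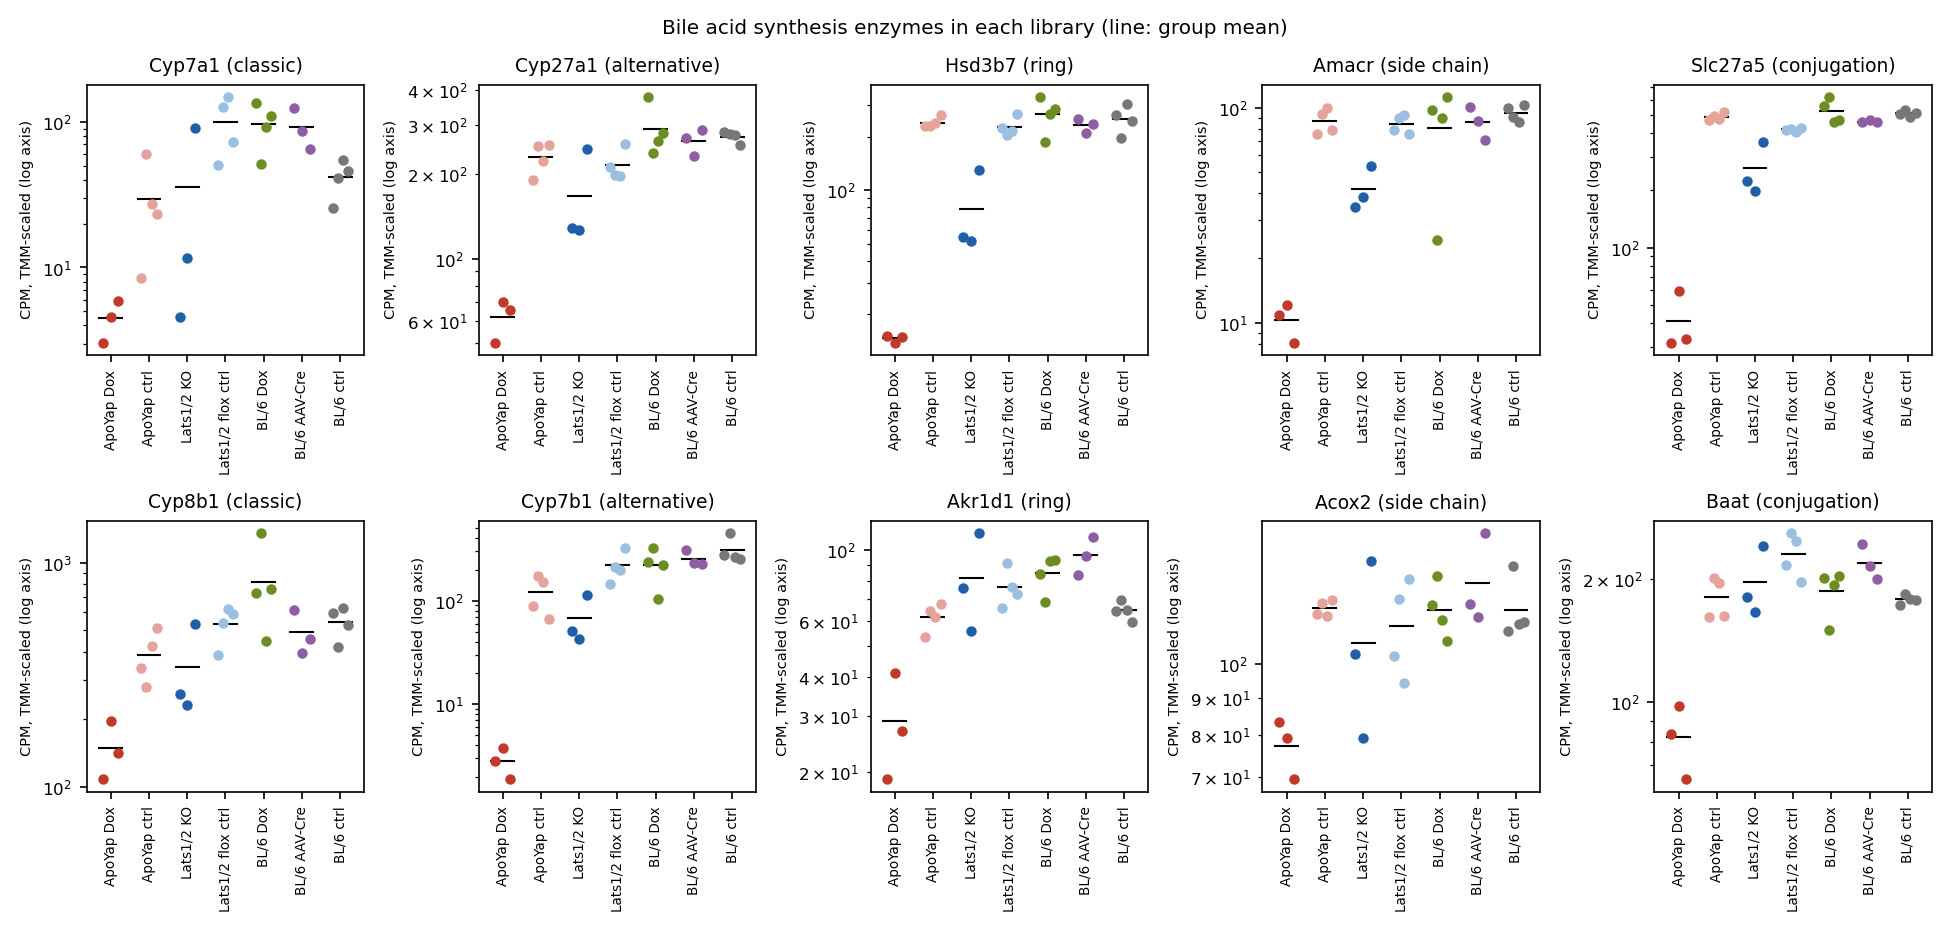
Level of each enzyme in each of the 25 libraries, in TMM-scaled CPM on a log axis, by group, with a line at the group mean. The 3 ApoYap Dox libraries lie below all 4 ApoYap ctrl libraries for each of the 10 enzymes. The 3 knockout libraries lie below all 4 floxed controls for 4 of them. Such separation was not counted over all genes. With hepatocyte marker scaling, Cyp8b1, Akr1d1, Acox2 and Baat are higher in ApoYap Dox.

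In the classic route, Cyp7a1 (chr4:6265612-6275633), the rate-setting enzyme, was measured at 3.04, 4.57 and 5.89 CPM in ApoYap Dox, against 8.41, 59.8, 27.3 and 23.5 CPM in ApoYap ctrl. The controls spread over a wide range, and the lowest of them stood close to the treated libraries. Cyp7a1 changed by -2.73 in log2 units in Yap induction (SE 0.82, adjusted p = 0.00672), and by -0.99 with scaling to hepatocyte markers (adjusted p = 0.242). In knockout libraries 1 to 3, Cyp7a1 stood at 4.58, 11.6 and 90.6 CPM, against 50.7, 127.0, 148.6 and 72.8 CPM in floxed controls. Libraries 1 and 2 lay below all controls and library 3 lay among them. Its knockout log2 fold change of -1.47 was not called (SE 0.74, adjusted p = 0.127), and without library 3 it was -3.60 (adjusted p = 0.000713). With any 1 library left out it ranged from -3.60 to -0.95.

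Cyp8b1 (chr9:121914356-121916305), the second classic enzyme, with the promoter shown above, fell by less. Its levels were 107.7, 196.6 and 140.7 CPM in ApoYap Dox, against 338.8, 277.3, 422.7 and 510.3 CPM in ApoYap ctrl. The groups were separate, and Cyp8b1 changed by -1.38 in log2 units (SE 0.34, adjusted p = 0.00119), but by 0.28 with scaling to hepatocyte markers (adjusted p = 0.441). Knockout libraries 1 to 3 gave 257.7, 230.1 and 534.0 CPM, against 385.4, 537.3, 618.1 and 589.6 CPM in floxed controls. Library 3 again lay within the controls. The change of -0.64 on the log2 scale was not called (SE 0.33, adjusted p = 0.134), and without library 3 it was -1.13 (adjusted p = 0.0139). With any 1 library left out it ranged from -1.13 to -0.42.

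In the alternative route, Cyp7b1 (chr3:18071950-18243338), which hydroxylates the ring of oxysterols, had the largest change of the 10 in Yap induction. It was measured at 2.85, 3.80 and 1.88 CPM in ApoYap Dox, against 88.9, 173.0, 150.7 and 67.3 CPM in ApoYap ctrl. No treated library came near a control (log2 fold change -5.39, SE 0.52, adjusted p = 1.99e-08). Knockout libraries had 50.8, 42.5 and 112.7 CPM, against 145.0, 210.3, 197.1 and 323.7 CPM in floxed controls. Here every knockout library, also the third, lay below every control (log2 fold change -1.67, SE 0.42, adjusted p = 0.00376).

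Cyp27a1 (chr1:74713574-74737892), the mitochondrial enzyme that opens the alternative route and also oxidises side chains in the classic one, stood at 50.0, 70.1 and 65.6 CPM in ApoYap Dox, against 191.3, 252.1, 222.0 and 254.7 CPM in ApoYap ctrl. The groups were far apart. Cyp27a1 changed by -1.89 in log2 units (SE 0.20, adjusted p = 9.50e-09), and by -0.19 with scaling to hepatocyte markers (adjusted p = 0.431). In the knockout, Cyp27a1 stood at 129.0, 126.0 and 246.6 CPM, against 212.6, 198.2, 196.9 and 257.2 CPM in floxed controls. Libraries 1 and 2 were below all controls and library 3 was above 3 of them. A log2 fold change of -0.37 was not called (SE 0.19, adjusted p = 0.132), and without library 3 it was -0.76 (adjusted p = 0.000963). With any 1 library left out it ranged from -0.76 to -0.20.

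The shared ring enzymes moved by very different amounts. Hsd3b7 (chr7:127800604-127803802), the dehydrogenase and isomerase that acts after ring hydroxylation, stood at 15.21, 13.84 and 15.01 CPM in ApoYap Dox, against 229.4, 230.6, 237.2 and 263.2 CPM in ApoYap ctrl. Both groups were tight (log2 fold change -4.03, SE 0.27, adjusted p = 1.06e-11). The knockout libraries stood at 54.8, 51.7 and 129.7 CPM, against 223.5, 203.1, 215.2 and 268.5 CPM in floxed controls, again with no overlap (log2 fold change -1.53, SE 0.24, adjusted p = 3.11e-05). The last 1000 bases of Hsd3b7 overlap the annotated gene Gm49388 on the same strand. Gm49388 is not among the counted symbols, and how reads of this shared end were assigned is not known.

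Akr1d1 (chr6:37530173-37568815), the reductase that acts after Hsd3b7, stood at 19.0, 41.1 and 27.0 CPM in ApoYap Dox, against 53.3, 64.4, 61.7 and 67.9 CPM in ApoYap ctrl. The groups were separate but nearer to each other than for Hsd3b7. Akr1d1 changed by -1.09 in log2 units (SE 0.21, adjusted p = 8.91e-05), but by 0.57 with scaling to hepatocyte markers (adjusted p = 0.0146). Its knockout levels were 76.0, 55.8 and 113.1 CPM, against 65.6, 91.1, 76.5 and 72.7 CPM in floxed controls. The knockout values lay on both sides of the controls (log2 fold change 0.10, SE 0.21, adjusted p = 0.751), and without library 3 the change was -0.22 (adjusted p = 0.437).

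Of the side chain enzymes, Amacr (chr15:10981756-10996626), the racemase that turns the side chain into the form the oxidase accepts, stood at 10.8, 12.1 and 8.06 CPM in ApoYap Dox, against 75.9, 93.5, 99.9 and 79.1 CPM in ApoYap ctrl. All treated libraries were far below the controls (log2 fold change -3.07, SE 0.34, adjusted p = 8.02e-08). Amacr in the knockout was measured at 34.4, 38.5 and 53.4 CPM, against 79.1, 89.2, 92.4 and 75.2 CPM in floxed controls, without overlap. Its change was -0.99 in log2 units (SE 0.31, adjusted p = 0.0145), and it lost its call without knockout library 1 (adjusted p = 0.071) or 2 (adjusted p = 0.0694), and with hepatocyte marker scaling (log2 fold change -0.29, adjusted p = 0.421).

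Acox2 (chr14:8225511-8259353), the peroxisomal oxidase of branched side chains, stood at 83.5, 79.2 and 69.6 CPM in ApoYap Dox, against 117.3, 121.3, 116.5 and 122.6 CPM in ApoYap ctrl. Both groups were narrow and did not meet. Acox2 changed, in log2 units, by -0.63 (SE 0.15, adjusted p = 0.000619), but by 0.29 with total counts alone (adjusted p = 0.0356) and by 1.05 with scaling to hepatocyte markers (adjusted p = 1.55e-06). In the knockout Acox2 stood at 103.3, 79.2 and 138.7 CPM, against 102.7, 123.0, 94.3 and 130.9 CPM in floxed controls. The groups overlapped on both sides (log2 fold change -0.07, SE 0.15, adjusted p = 0.729), and both other scalings gave positive values that were called, 0.39 with total counts alone (adjusted p = 0.0126) and 0.61 with hepatocyte markers (adjusted p = 0.00293).

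Of the conjugating enzymes, Slc27a5 (chr7:12988346-12998192), which loads bile acids onto coenzyme A, stood at 31.6, 59.0 and 33.2 CPM in ApoYap Dox, against 468.4, 491.0, 474.2 and 514.6 CPM in ApoYap ctrl. The controls lay within a narrow band far above the treated libraries (log2 fold change -3.56, SE 0.20, adjusted p = 2.35e-13). Slc27a5 in the knockout had 225.3, 199.7 and 359.4 CPM, against 417.5, 421.8, 407.8 and 426.5 CPM in floxed controls, without overlap (log2 fold change -0.68, SE 0.18, adjusted p = 0.00417). Its adjusted p was 0.0508 without knockout library 2. With total counts alone it was -0.22 (adjusted p = 0.256) and with scaling to hepatocyte markers 0.01 (adjusted p = 0.952).

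Baat (chr4:49489422-49506557), which transfers taurine or glycine to the activated acid, stood at 83.5, 97.6 and 64.7 CPM in ApoYap Dox, against 161.8, 201.5, 195.5 and 162.3 CPM in ApoYap ctrl. The groups did not meet. Baat changed, in log2 units, by -1.14 (SE 0.15, adjusted p = 3.23e-07), but by 0.52 with scaling to hepatocyte markers (adjusted p = 0.00245). In the knockout Baat stood at 181.2, 166.5 and 241.4 CPM, against 216.8, 258.7, 247.1 and 196.6 CPM in floxed controls. Library 3 lay among the controls. The change of -0.23 was not called (SE 0.15, adjusted p = 0.236), and without library 3 it was -0.40 (adjusted p = 0.0408). With any 1 library left out it ranged from -0.40 to -0.12.

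In the knockout as a whole, 4 of the 10 enzymes were called lower (Cyp7b1, Hsd3b7, Amacr and Slc27a5) and none higher with TMM, and with hepatocyte marker scaling Slc27a5 was no longer below its controls. Over all genes tested, 17.4% were called lower and 20.6% higher. The same 4 were the ones whose knockout and control libraries did not overlap, a separation that was not counted over all genes. The median log2 fold change of the enzymes was -0.66, beside -0.03 over all genes. Without knockout library 3, the number of enzymes called lower was 8, beside 2364 of 13316 genes. Without library 2 it was 2, beside 1362 of 13263 genes. With total counts alone, 2 were lower and 2 higher, beside 4.41% of all genes lower and 44.6% higher. With hepatocyte markers, 2 were lower (Cyp7b1 and Hsd3b7) and 3 higher (Acox2, Akr1d1 and Baat), beside 2.04% of all genes lower and 56% higher. Under both scalings the share of enzymes called higher was below that of all genes. Macrophage markers summed to 1077, 2887 and 1252 CPM in knockout libraries 1 to 3, and hepatocyte markers to 94270, 92150 and 85010 CPM, both before TMM scaling. Of the 3 knockout libraries, library 3 had the lowest stellate sum at 298.8 CPM, the lowest cholangiocyte sum at 393.4 CPM, the lowest neutrophil sum at 1.272 CPM and the lowest lymphocyte sum at 0.3633 CPM, and library 1 the lowest macrophage sum and the lowest endothelial sum, at 825.1 CPM beside 911.2 CPM in library 3. The part of these sums in the values of library 3 was not tested.

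**Figure D2:**
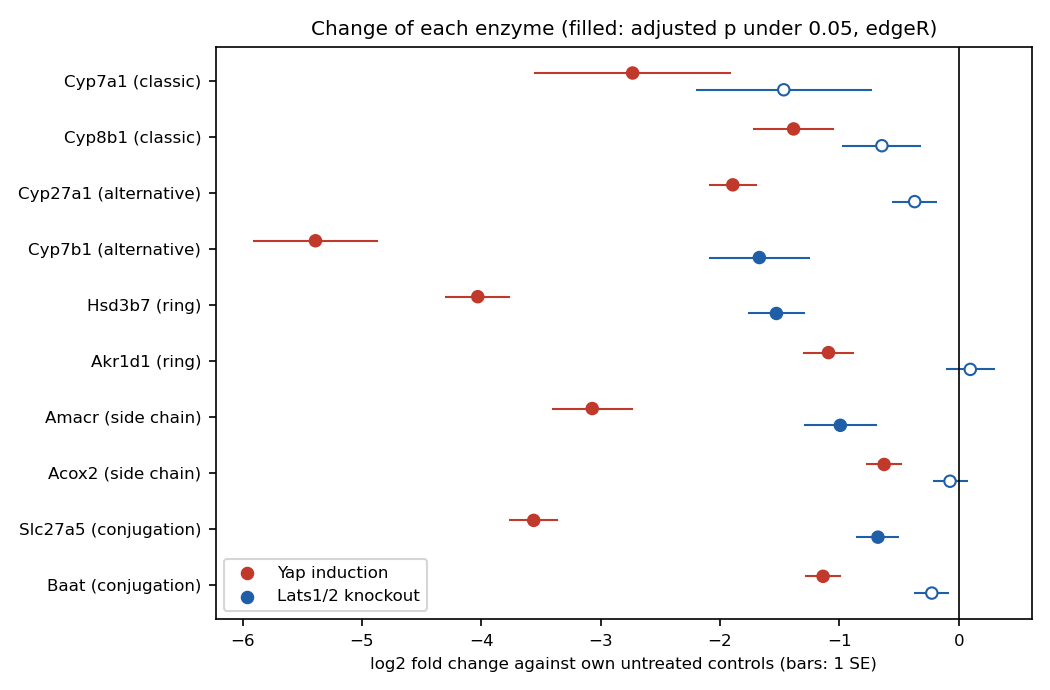
Log2 fold change of each enzyme with its SE in Yap induction (ApoYap Dox against ApoYap ctrl) and in the Lats1/2 knockout (against floxed controls), under TMM scaling. All 10 changes are below 0 and called in Yap induction, of which Cyp8b1, Akr1d1, Acox2 and Baat turn positive with scaling to hepatocyte markers, and 4 are called in the knockout.

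The difference between both comparisons was tested in the same model. The knockout less Yap induction was called higher, that is less negative, for 8 of the 10 enzymes, beside 17.4% of all genes called higher and 12.4% lower. It was 3.72 on the log2 scale for Cyp7b1 (SE 0.61, adjusted p = 0.000122), 2.88 for Slc27a5 (SE 0.26, adjusted p = 7.88e-09) and 2.5 for Hsd3b7 (SE 0.33, adjusted p = 4.50e-06). It was 2.08 for Amacr, 1.52 for Cyp27a1, 1.19 for Akr1d1 and 0.91 for Baat. The smallest of those called was Acox2 at 0.55 (adjusted p = 0.0455), whose adjusted p ranged from 0.00458 to 0.69 over the alternatives. Both classic enzymes missed the threshold, with 1.27 for Cyp7a1 (SE 1.05, adjusted p = 0.401) and 0.74 for Cyp8b1 (SE 0.46, adjusted p = 0.248). Without knockout library 3 the value for Cyp7a1 was -0.86 (adjusted p = 0.523). With scaling to hepatocyte markers 4 enzymes were called higher, beside 3.98% of all genes higher and 52.8% lower, and Cyp8b1, Acox2 and Baat had values below 0.

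**Figure D3:**
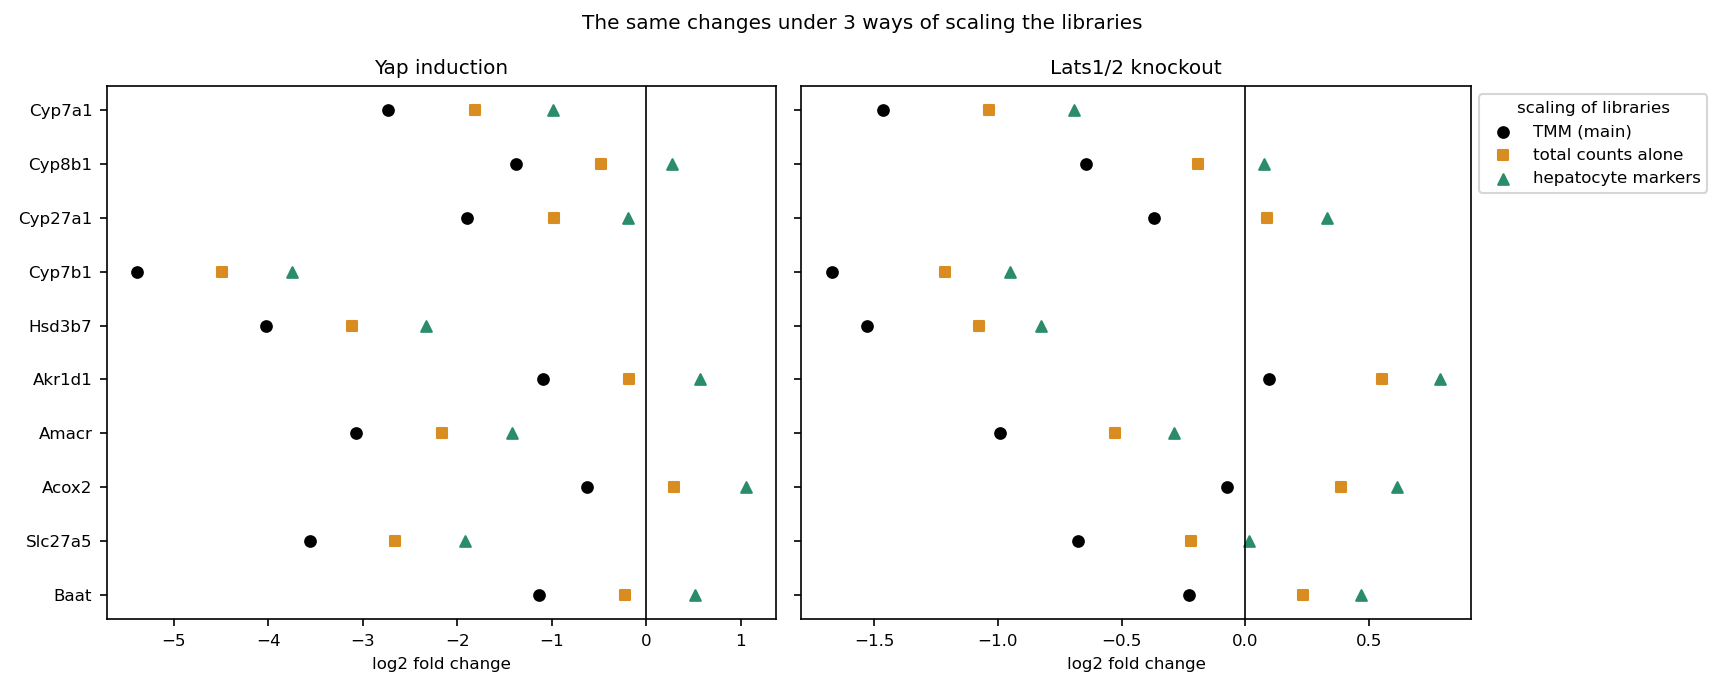
Log2 fold change of each enzyme in Yap induction and in the Lats1/2 knockout under TMM, total counts alone and hepatocyte marker scaling. Within a panel all values shift together and the enzymes keep their order, so that Cyp7b1, Hsd3b7, Cyp7a1 and Amacr stay below 0 in both panels under all 3 scalings, and Acox2 is above 0 in both under 2 of them.

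The choice of scaling shifts all genes of a library together. The median log2 fold change of all genes moved to 0.99 in Yap induction and 0.44 in the knockout with total counts alone, and to 1.76 and 0.66 with hepatocyte markers. Relative to those medians, each of the 10 enzymes remained below the middle of all genes in Yap induction. The share of higher among all called genes moved as well: in Yap induction it was 52.2% with TMM, 84% with total counts alone and 93.6% with hepatocyte markers. In the knockout it was 54.2%, 91% and 96.5%. In the same order it was 49.4%, 84.1% and 93.4% for Yap induction net of doxycycline, 53.1%, 88.5% and 95.6% for the knockout net of the virus, and 58.5%, 24.3% and 7.01% for the knockout less Yap induction. For the strains it was 33.3%, 45.5% and 36.6% in ApoYap ctrl and 76.4%, 59.2% and 79.5% in floxed controls, both against BL/6 ctrl. For doxycycline alone it was 18.8%, 18.8% and 0%, over 16, 16 and 7 genes.

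Ratios of counts between enzymes of 1 library do not depend on the scaling, and are given here as a description with no test. The ratio of Slc27a5 to Baat was 0.378, 0.605 and 0.513 in ApoYap Dox, against 2.43 to 3.17 in ApoYap ctrl. Knockout ratios were 1.24, 1.2 and 1.49, against 1.63 to 2.17 in floxed controls. The RNA of Slc27a5 was lower relative to that of Baat in each model than in its controls, without overlap. In BL/6 AAV-Cre it was 1.88 to 2.28, against 2.73 to 2.91 in BL/6 ctrl, also lower and without overlap. The untreated floxed controls, at 1.63 to 2.17, lay below every BL/6 ctrl library as well.

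Within the ring steps, the ratio of Akr1d1 to Hsd3b7 was 1.25, 2.97 and 1.80 in ApoYap Dox, against 0.233 to 0.279 in ApoYap ctrl. It was 1.39, 1.08 and 0.872 in the knockout, against 0.271 to 0.449 in floxed controls, and 0.213 to 0.467 over all untreated, doxycycline and virus libraries of BL/6 mice. Every ApoYap Dox and knockout library stood above every other library.

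Between the routes, the ratio of Cyp8b1 to Cyp7b1 was 37.7, 51.7 and 74.8 in ApoYap Dox, against 1.60 to 7.59 in ApoYap ctrl. It was 5.08, 5.42 and 4.74 in the knockout, against 1.82 to 3.14 in floxed controls. The ratio of the classic enzyme to the alternative one was higher in each model than in its own controls, and the knockout stayed within the range of the untreated ApoYap libraries. In BL/6 Dox it was 3.10 to 4.32, against 0.943 to 2.35 in BL/6 ctrl, also without overlap.

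The ratio of Cyp7b1 to Cyp7a1, the ring hydroxylases of the 2 routes, was 0.940, 0.832 and 0.320 in ApoYap Dox, against 2.87 to 10.6 in ApoYap ctrl. In the knockout it was 11.1, 3.65 and 1.24, against 1.33 to 4.45 in floxed controls. The groups were separate in Yap induction and overlapped in the knockout. In BL/6 Dox the ratio was 1.76, 6.34, 1.12 and 2.01, against 4.85 to 10.9 in BL/6 ctrl, so that 3 of 4 doxycycline libraries also lay below every control of their own strain. In BL/6 AAV-Cre it was 2.46 to 3.48, below the same controls in each of 3 libraries. The untreated floxed controls, at 1.33 to 4.45, also lay below every BL/6 ctrl library. The ratio of Cyp27a1 to Cyp7b1, within the alternative route, was 17.5, 18.5 and 34.9 in ApoYap Dox, against 1.46 to 3.79 in ApoYap ctrl, and 2.54, 2.96 and 2.19 in the knockout, against 0.794 to 1.47 in floxed controls. In BL/6 Dox it was 0.733 to 2.54, against 0.622 to 1.04 in BL/6 ctrl, with overlap.

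**Figure D4:**
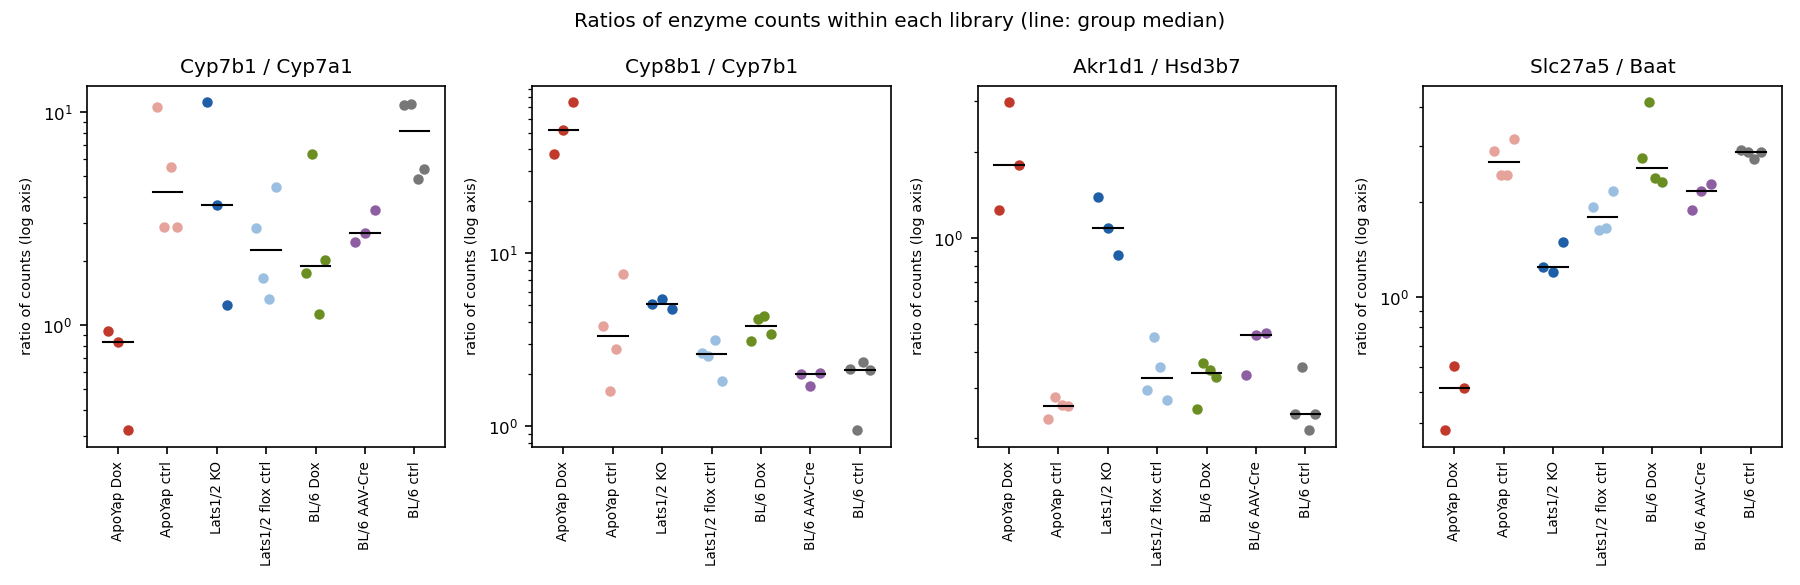
Ratio of the counts of 2 enzymes within each library, on a log axis, by group, with a line at the group median. The Akr1d1 to Hsd3b7 ratio is at least 0.872 in all libraries of ApoYap Dox and Lats1/2 KO and at most 0.467 in all others, and the Slc27a5 to Baat ratio is lowest in ApoYap Dox.

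Neither doxycycline nor the virus alone moved an enzyme past the threshold in BL/6 mice. In BL/6 Dox against BL/6 ctrl, edgeR called 0 of 10, beside 0.0231% of all genes called higher and 0.1% lower. At an unadjusted p under 0.05 there were 0 as well, and DESeq2 and limma voom called 0. Cyp7a1 stood at 134.5, 51.1, 92.1 and 110.5 CPM in BL/6 Dox, against 25.8, 41.1, 55.0 and 46.1 CPM in BL/6 ctrl. Of the treated libraries, 3 lay above all controls, yet the log2 fold change of 1.21 was not called (SE 0.67, adjusted p = 0.486).

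BL/6 Dox library 2 stood apart for several enzymes. Cyp8b1 was measured at 731.5, 1350.0, 447.1 and 758.7 CPM in BL/6 Dox, against 421.7 to 627.4 CPM in BL/6 ctrl, and Amacr at 97.4, 24.3, 89.2 and 112.4 CPM, against 85.8 to 102.9 CPM. Without this library the log2 fold change of Amacr turned to 0.07, against -0.23 with it.

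Yap induction net of doxycycline, the difference of both contrasts, was called lower for all 10 enzymes, beside 27.4% of all genes called lower and 26.7% higher. It was -4.90 for Cyp7b1 (SE 0.61, adjusted p = 1.27e-06) and -3.94 for Cyp7a1 (SE 1.06, adjusted p = 0.00396). The number stayed at 10 without BL/6 Dox libraries 1 and 2 together, beside 3454 of 13319 genes called lower. With scaling to hepatocyte markers, 4 were called lower and Acox2 higher, beside 5.29% of all genes lower and 74.4% higher.

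In BL/6 AAV-Cre against BL/6 ctrl, edgeR called 0 of 10, beside 0.254% of all genes called higher and 0.0463% lower, with Akr1d1 and Baat higher at an unadjusted p under 0.05. DESeq2 called 0 and limma voom 1. Akr1d1 stood at 83.5, 95.7 and 109.9 CPM in BL/6 AAV-Cre, against 59.3 to 70.0 CPM in BL/6 ctrl, a difference of 0.58 in log2 units (SE 0.21, adjusted p = 0.216). Cyp7a1 stood at 124.4, 86.0 and 65.0 CPM in BL/6 AAV-Cre, against 25.8 to 55.0 CPM in BL/6 ctrl, a difference of 1.13 in log2 units (SE 0.71, adjusted p = 0.517). Both genes had every virus library above every control and missed the threshold. So did Baat, at 199.6 to 243.0 CPM in BL/6 AAV-Cre, against 172.4 to 183.5 CPM in BL/6 ctrl (log2 fold change 0.30, SE 0.15, adjusted p = 0.377). Slc27a5 had every virus library below every control, at 455.5 to 467.1 CPM in BL/6 AAV-Cre, against 489.0 to 528.9 CPM in BL/6 ctrl (log2 fold change -0.14, SE 0.18, adjusted p = 0.793). How many of all genes separate in this way between virus and control libraries was not counted. The adjusted p of Akr1d1 ranged from 0.00423 to 0.523 over the alternatives.

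Net of the virus, the knockout was called lower for Hsd3b7 only, at -1.40 (SE 0.32, adjusted p = 0.00335), beside 11.4% of all genes called lower and 13% higher. Cyp7a1 at -2.60 (SE 1.02, adjusted p = 0.0706) and Cyp7b1 at -1.38 (SE 0.57, adjusted p = 0.0814) were not called. With 1 library left out, Cyp7a1 ranged from -4.73 to -2.085 and Cyp7b1 from -1.95 to -1.13, and without knockout library 3 both were called, Cyp7a1 at -4.73 (adjusted p = 0.000752) and Cyp7b1 at -1.95 (adjusted p = 0.0157). The number of enzymes called lower was 7 without knockout library 3, beside 1735 of 13316 genes. It was 3 without BL/6 Dox library 2, beside 1771 of 12958 genes. It was 2 without ApoYap Dox library 3, beside 1523 of 13122, or floxed control library 4, beside 1369 of 12953. With DESeq2 it was 3 and with limma voom 6, beside 1283 and 2029 of 12970 genes. With scaling to hepatocyte markers it was 0, where 1.55% of all genes were lower and 33.4% higher. Since the virus was sampled at 24 hours and the knockout at 1 week, time and genotype cannot be told apart in this difference.

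The untreated strains were also set against BL/6 ctrl. In ApoYap ctrl, 0 of 10 enzymes were called by edgeR, beside 0.293% of all genes called lower and 0.146% higher, with Cyp7b1 lower at an unadjusted p under 0.05 and called lower by both DESeq2 and limma voom. Cyp7b1 stood at 67.3 to 173.0 CPM in ApoYap ctrl, against 249.9 to 447.4 CPM in BL/6 ctrl, without overlap, a separation that was not counted over all genes. Cyp7b1 differed by -1.37 in log2 units (SE 0.38, adjusted p = 0.175, with a range of 0.00727 to 0.480 over the alternatives). For the enzyme with the largest change in Yap induction, the control libraries of the transgenic strain thus lay below those of BL/6 ctrl, a difference that edgeR did not call.

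In Lats1/2 flox ctrl, 0 of 10 were called by edgeR, beside 3.15% of all genes called higher and 0.971% lower, with Baat higher at an unadjusted p under 0.05. DESeq2 called 0 and limma voom 1. Baat stood at 196.6 to 258.7 CPM in Lats1/2 flox ctrl, against 172.4 to 183.5 CPM in BL/6 ctrl, a difference of 0.37 in log2 units (SE 0.14, adjusted p = 0.132, with a range of 0.0125 to 0.282 over the alternatives). Cyp7a1 stood at 50.7 to 148.6 CPM in floxed controls, against 25.8 to 55.0 CPM in BL/6 ctrl, a difference of 1.25 (SE 0.67, adjusted p = 0.328). Slc27a5, called lower in the knockout, stood at 407.8 to 426.5 CPM in floxed controls, against 489.0 to 528.9 CPM in BL/6 ctrl. It differed by -0.28 in log2 units (SE 0.16, adjusted p = 0.371, with a range of 0.0276 to 0.494 over the alternatives). Baat and Slc27a5 did not overlap between these groups, a separation that was not counted over all genes.

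Cyp7a1 had the widest spread between replicates of the 10. Its coefficient of variation was 29.2% to 134% over the 7 groups, with a median of 36.3%. Cyp7b1 had a median of 34.4% and Cyp8b1 of 26.2%, while Slc27a5 had the lowest, 4.26%. From high to low, the group means of Cyp7a1 were 99.8 ± 45.7 CPM in Lats1/2 flox ctrl, 97.05 ± 35.2 CPM in BL/6 Dox, 91.8 ± 30.1 CPM in BL/6 AAV-Cre, 42.0 ± 12.2 CPM in BL/6 ctrl, 35.6 ± 47.8 CPM in Lats1/2 KO, 29.7 ± 21.6 CPM in ApoYap ctrl and 4.50 ± 1.43 CPM in ApoYap Dox (SD, n = 3 or 4). Neighbours in this order overlapped in their libraries, except BL/6 AAV-Cre and BL/6 ctrl, and ApoYap Dox and ApoYap ctrl.

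Over the 25 libraries, the enzymes were also compared by the root mean square difference of their centred log2 CPM, where 0 means the same profile. The closest pairs were Akr1d1 and Baat (0.266) and Acox2 and Baat (0.343), and the farthest was Cyp7b1 and Acox2 (1.83). Hsd3b7 and Slc27a5 stood at 0.403. Among 8680 genes searched, the nearest to Cyp27a1 were Nit2 (0.194), Adh5 (0.196) and Gch1 (0.200), and the nearest to Cyp8b1 were Deptor (0.356), Cmtm8 (0.359) and Slc38a4 (0.361). Those nearest to Cyp7b1 were Serpina1e (0.373), Slc22a7 (0.545) and Aox3 (0.560). Cyp7a1 had no near profile, with Cyp2c38 (0.841), Tbx3 (0.843) and Fitm1 (0.843) at the least distance. Serpina1e and Cyp2c38 belong to families of near-identical genes, so their counts are uncertain.

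The other genes of bile acid metabolism were counted by lists. Each count stands beside the share of all genes tested: with TMM, 32% were lower and 35% higher in Yap induction and 17.4% lower and 20.6% higher in the knockout, and with hepatocyte marker scaling 5.67% were lower and 83% higher in Yap induction and 2.04% lower and 56% higher in the knockout. The list of 13 peroxisomal partners held genes of side chain shortening and others, such as Phyh, that act on fatty acids. Of these 13, 11 were called lower and none higher in Yap induction with TMM, and 7 lower and 3 higher with hepatocyte marker scaling. In the knockout 9 were lower and none higher, and 3 lower and 1 higher with hepatocyte marker scaling. The shares called higher with that scaling were below those of all genes in both comparisons. The median log2 fold changes were -2.30 and -0.83, beside 0.07 and -0.03 over all genes. Scp2, the thiolase and sterol carrier of the last shortening step, changed by -2.36 in Yap induction (SE 0.15, adjusted p = 2.22e-12) and -1.34 in the knockout (SE 0.15, adjusted p = 2.22e-07). Phyh, which oxidises branched fatty acids, changed by -3.70 (SE 0.18, adjusted p = 2.20e-14) and -1.10 (SE 0.16, adjusted p = 1.22e-05).

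Of 8 electron donors and further steroid ring enzymes, 7 were lower and none higher in Yap induction with TMM, and 4 lower and 4 higher with hepatocyte marker scaling. In the knockout 5 were lower and none higher, and 3 lower and 1 higher with that scaling. The 4 of 8 higher in Yap induction and 1 of 8 higher in the knockout were smaller shares than the 83% and 56% of all genes. Hsd11b1, which reduces cortisone and other keto-steroids, changed by -4.72 in Yap induction (SE 0.24, adjusted p = 2.26e-14) and -1.35 in the knockout (SE 0.20, adjusted p = 1.22e-05). Akr1c6, a further hydroxysteroid dehydrogenase, changed by -4.51 (SE 0.29, adjusted p = 3.23e-12) and -1.14 (SE 0.24, adjusted p = 0.00069), the second of which was no longer called with hepatocyte marker scaling (-0.43, adjusted p = 0.116).

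Of 6 other sterol and bile acid hydroxylases, 5 passed the filter. In Yap induction 3 were lower and none higher, with 2 lower and 2 higher under hepatocyte marker scaling. In the knockout 3 were lower and 1 higher, with none lower and 1 higher under hepatocyte marker scaling, again smaller shares higher than the 83% and 56% of all genes. Without knockout library 1 or 3, or floxed control library 2, 1 was lower in the knockout with TMM. Cyp2c70, which makes the muricholic acids of rodents, changed by -1.55 in Yap induction (SE 0.28, adjusted p = 3.74e-05), but by 0.08 with hepatocyte marker scaling. In the knockout its value was -0.48 (SE 0.27, adjusted p = 0.168), and 0.21 with that scaling. Ch25h, which makes an oxysterol, did not pass the filter. It had 2, 3 and 11 counts in ApoYap Dox and 0 in each ApoYap ctrl library, and 2, 7 and 0 counts in the knockout and 0 in each floxed control.

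**Figure D5:**
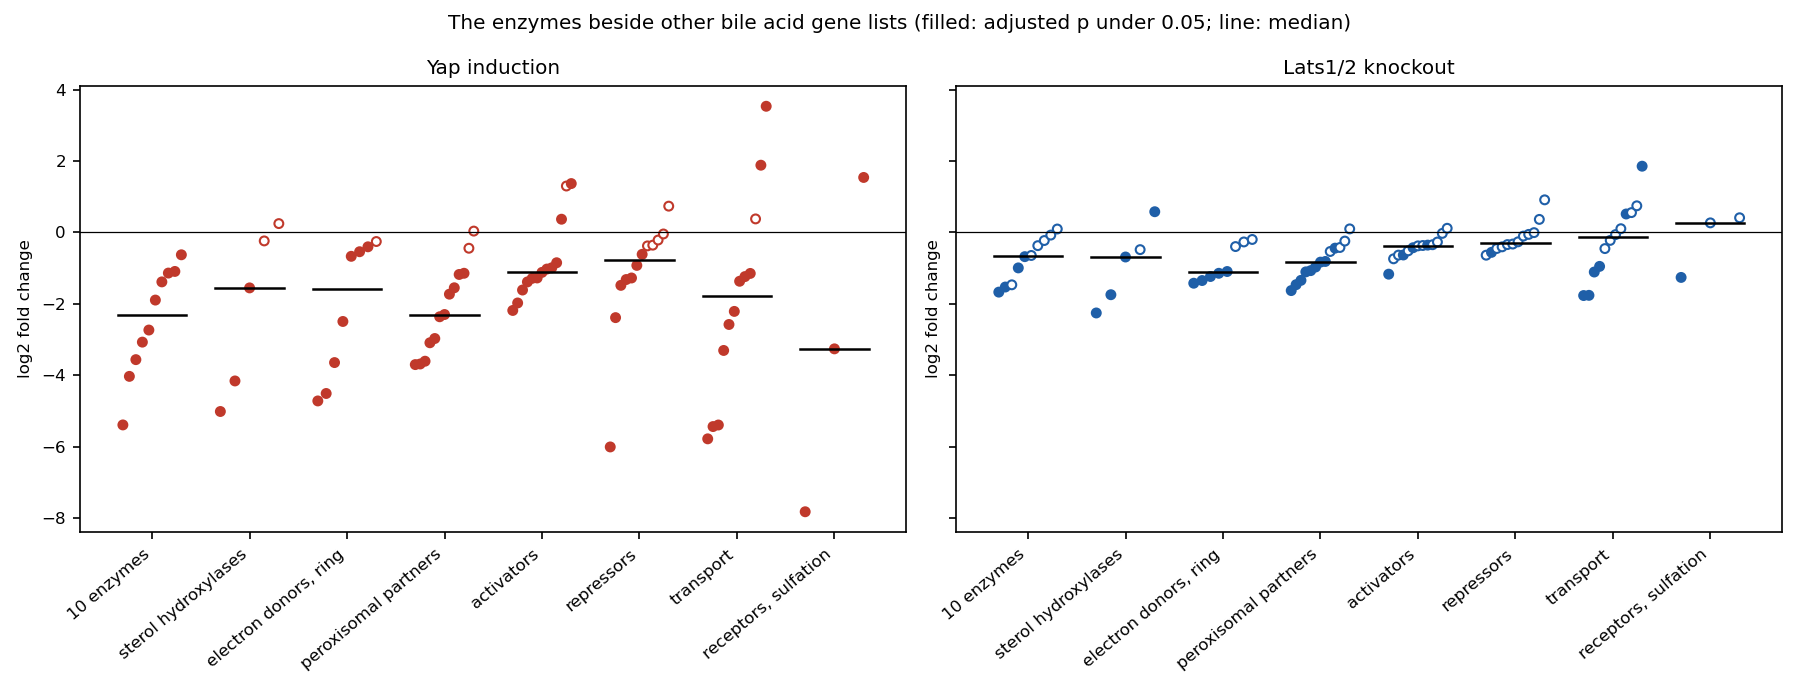
Log2 fold change under TMM scaling of the 10 enzymes and of genes in 7 other lists of bile acid metabolism, in Yap induction and in the Lats1/2 knockout, with a line at each list's median. The medians of all sets are below 0 in both panels, except that of the 3 receptor and conjugation genes in the knockout, at 0.27, and filled points are genes called at an adjusted p under 0.05, some of which, Hnf4a and Nr5a2 among them, are above 0 with scaling to hepatocyte markers.

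Transport into and out of hepatocytes was counted over 12 genes. In Yap induction 9 were lower and 2 higher, and 6 lower and 4 higher with hepatocyte marker scaling. In the knockout 4 were lower and 2 higher, and 3 lower and 7 higher with that scaling. The 4 of 12 higher in Yap induction lay below the 83% of all genes, and the 7 of 12 higher in the knockout near the 56%. Without floxed control library 2 or 4, 1 was higher in the knockout with TMM. The uptake carrier Slc10a1 changed by -5.43 in Yap induction (SE 0.32, adjusted p = 1.71e-12) and -1.76 in the knockout (SE 0.26, adjusted p = 1.84e-05). The uptake carrier Slco1b2 changed by -5.78 (SE 0.37, adjusted p = 7.39e-12) and -1.77 (SE 0.30, adjusted p = 8.57e-05), the second of which was -2.59 without knockout library 3. The export pump Abcb11 changed by -3.30 (SE 0.13, adjusted p = 4.17e-16) and -1.11 (SE 0.12, adjusted p = 1.27e-07). These 3 were called lower in both comparisons also with hepatocyte marker scaling.

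Regulators were counted in 2 lists. Of 13 genes known to activate bile acid synthesis, 10 were lower and 2 higher in Yap induction, and 1 lower and 8 higher with hepatocyte marker scaling. In the knockout 4 were lower and none higher, and none lower and 2 higher with that scaling. The 8 of 13 and 2 of 13 higher were smaller shares than the 83% and 56% of all genes. The number lower in the knockout with TMM was 2 without knockout library 2 or floxed control library 3, and the number higher in Yap induction was 1 without ApoYap Dox library 3. Hnf4a, whose motif stands in the Cyp8b1 promoter, had 107.1, 129.8 and 97.25 CPM in ApoYap Dox libraries and 258.8 to 277.8 CPM in ApoYap ctrl libraries. Its log2 fold change was -1.27 (SE 0.15, adjusted p = 5.87e-08), and 0.39 with hepatocyte marker scaling. In the knockout it was -0.63 (SE 0.15, adjusted p = 0.00158), and 0.07 with that scaling. Nr5a2 changed by -1.12 in Yap induction (SE 0.15, adjusted p = 3.14e-07) and -0.43 in the knockout (SE 0.15, adjusted p = 0.0215), and by 0.55 and 0.24 with that scaling. Its knockout call was lost without knockout library 2 (adjusted p = 0.164) or floxed control library 3 (adjusted p = 0.0769).

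Of 12 genes known to repress bile acid synthesis, 7 were lower and none higher in Yap induction, and 2 lower and 7 higher with hepatocyte marker scaling. In the knockout 1 was lower and none higher, and none lower and 6 higher with that scaling. The 7 of 12 higher in Yap induction lay below the 83% of all genes, and the 6 of 12 higher in the knockout near the 56%. The 1 lower in the knockout with TMM was a smaller share than the 17.4% of all genes, and the number was 0 without knockout library 2 or floxed control library 3. It was 2 without knockout library 3, floxed control library 4, BL/6 Dox library 1 or 2, or ApoYap Dox library 2. Nr0b2 had 1.08, 0.226 and 0.772 CPM in ApoYap Dox libraries and 32.1 to 57.9 CPM in ApoYap ctrl libraries. It changed by -6.01 in log2 units (SE 0.49, adjusted p = 1.09e-09), and stayed called lower under all 3 scalings. In the knockout Nr0b2 stood at 25.2, 21.6 and 20.9 CPM, against 23.3 to 53.3 CPM in floxed controls, and was not called (log2 fold change -0.64, SE 0.35, adjusted p = 0.163; 0.05 with hepatocyte marker scaling). Nr1h4 changed by -1.27 in Yap induction (SE 0.19, adjusted p = 2.34e-06) and -0.56 in the knockout (SE 0.19, adjusted p = 0.0207), and by 0.37 and 0.145 with hepatocyte marker scaling. Its knockout call was lost without knockout library 1 (adjusted p = 0.096), knockout library 2 (adjusted p = 0.138) or floxed control library 3 (adjusted p = 0.0974). Fgfr4 changed by -0.92 in Yap induction (SE 0.15, adjusted p = 6.24e-06), but by 0.76 with that scaling, and Klb by -1.32 (SE 0.18, adjusted p = 7.38e-07), but by 0.34. In the knockout neither was called, at -0.26 for Fgfr4 (adjusted p = 0.157) and -0.40 for Klb (adjusted p = 0.0801). Without knockout library 3 Klb was -0.60 (adjusted p = 0.0198), and without knockout library 2 it was -0.26 (adjusted p = 0.356). Both genes were above 0 with total counts alone and with hepatocyte marker scaling, the second of which called Fgfr4 higher (adjusted p = 0.038).

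A last list of 6 genes held bile acid receptors and enzymes that sulfate or glucuronidate bile acids, and 3 of them passed the filter. In Yap induction 2 were lower and 1 higher, with TMM, total counts alone and hepatocyte marker scaling alike. With total counts alone, 12.6% of all genes were lower and 66.4% higher in this comparison. In the knockout 1 was lower and none higher with TMM, and none lower and 2 higher with each of the other 2 scalings. Beside these stood 44.6% of all genes higher with total counts alone and 56% with hepatocyte markers. With only 3 genes, 2 higher is near both shares. The median log2 fold changes were -3.26 in Yap induction and 0.27 in the knockout. The receptor S1pr2 had 15.57, 12.53 and 16.94 CPM in ApoYap Dox libraries and 4.36 to 6.016 CPM in ApoYap ctrl libraries, without overlap (log2 fold change 1.54, SE 0.25, adjusted p = 6.21e-06). The sulfotransferase Sult2a8 had 1.734, 0.8144 and 0.2413 CPM in ApoYap Dox libraries and 178.8 to 271.6 CPM in ApoYap ctrl libraries (log2 fold change -7.82, SE 0.52, adjusted p = 6.39e-11). In the knockout Sult2a8 stood at 59.16, 74.65 and 153.0 CPM, against 207.3 to 259.5 CPM in floxed controls, without overlap (log2 fold change -1.26, SE 0.36, adjusted p = 0.00887). This call was lost without knockout library 1 (adjusted p = 0.0578) or 2 (adjusted p = 0.0608), and with hepatocyte marker scaling (adjusted p = 0.207). The glucuronosyltransferase Ugt2b1 changed by -3.26 in Yap induction (SE 0.29, adjusted p = 8.66e-10), and in the knockout its value was 0.27 (SE 0.25, adjusted p = 0.432), and -0.03 without knockout library 3 (adjusted p = 0.937). Sult2a8 and Ugt2b1 belong to families of similar genes, so their counts are uncertain.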

How the data were processed

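The libraries are QuantSeq 3′ FWD, per the labels' protocols, so a count does not grow with transcript length. The submitters' processing notes name FastQC, cutadapt, STAR 2.6.1d and mm10 (GRCm38). No source used here names the counting tool, the annotation or the strand setting, which leaves overlapping and antisense genes uncertain. The authors deposited whole-number counts per gene and library, without normalization.

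Table columns were matched to samples by name. edgeR 4.0.16 (R 4.3.3) was run with filterByExpr by group (minimum count 10, total 15), TMM scaling and a robust quasi-likelihood fit of 1 mean per group over all 25 libraries. Each of 9 comparisons was tested with glmQLFTest, adjusted by Benjamini-Hochberg over 12970 genes, at a threshold of 0.05. The SE was taken as the absolute log2 fold change over the square root of F (prior count 0.125). The fit was first tested on simulated counts. Replicate libraries differed beyond counting noise (lowest chi-square per degree of freedom 7.75).

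The enzymes and gene lists were chosen with earlier results of these data known. The rule for named genes took the 10 enzymes, up to 4 genes of each list with the smallest p in Yap induction and in the knockout, a fixed set (Nr0b2, Nr1h4, Nr5a2, Hnf4a, Fgfr4, Klb, Slc10a1, Abcb11, Cyp2c70, Ch25h, Yap1, Lats1, Lats2, Ccn2 and Alb) and the 3 nearest profiles of 4 enzymes (average log2 CPM at least 2, pseudocount 0.5 CPM). Of the genes this rule takes from the lists, only some are printed, chosen with their values known. Positions are from GENCODE M21. Alternatives were DESeq2 1.42.0, limma voom (limma 3.58.1) with quality weights, other scalings, no filter, the replicate block, only the compared groups, an adjusted p under 0.01, and libraries left out.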

Additional observations from a re-analysis of the deposited data

Results flagged for a closer look

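In BL/6 ctrl, library 2 stood apart from the other 3 for a pair of enzymes. Acox2 was at 136.5 CPM in it, against 111.0 to 114.5 CPM in the others, and Cyp7b1 at 447.4 CPM, against 249.9 to 277.9 CPM. These were 2 of 40 groups of 4 libraries examined, and chance sets a library apart in about 1 of 20.

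The response to doxycycline differed between ApoYap and BL/6 mice for all 10 enzymes, by the test of the difference on the log2 scale with TMM. Of all genes, 27.4% were called lower and 26.7% higher in this difference. With scaling to hepatocyte markers 4 enzymes were called lower and Acox2 higher, at 0.98, beside 5.29% of all genes lower and 74.4% higher. Akr1d1 and Baat turned to 0.099 and 0.37. With total counts alone Acox2 turned to 0.31, and Akr1d1 and Baat lost their calls. The TMM values not given above were -0.63 for Acox2, -1.48 for Akr1d1, -2.84 for Amacr, -1.21 for Baat, -1.98 for Cyp27a1, -1.98 for Cyp8b1, -4.12 for Hsd3b7 and -3.61 for Slc27a5, beside -3.94 for Cyp7a1 and -4.90 for Cyp7b1. The response to the Cre virus differed between floxed and BL/6 mice for Hsd3b7 only, at -1.40 with TMM, beside 11.4% of all genes called lower and 13% higher. This call was lost with scaling to hepatocyte markers, and the sampling times differed.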

How the results depend on the processing

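Of the values of called enzymes recomputed under the alternatives, 1110 kept their direction and call, 43 lost the call and 12 turned round. Most of these alternatives left out 1 library, often of a group outside the comparison, so the first number says little about robustness. All 12 turned round with total counts alone or with scaling to hepatocyte markers. The cause of the lost calls was not tested. DESeq2 called 3 enzymes lower in the knockout net of the virus, beside 1283 of 12970 genes. It called 1 lower in ApoYap ctrl against BL/6 ctrl, beside 69 genes. With limma voom, 8 enzymes were lower in the knockout and 6 net of the virus, beside 2561 and 2029 genes. With the virus alone 1 was higher, beside 353 genes. In ApoYap ctrl 1 was lower, beside 103 genes, and in floxed controls 1 was higher, beside 817 genes. Under limma voom the values of Akr1d1 in the knockout (-0.029) and of Cyp7a1 in the knockout less Yap induction (-0.49) turned round. With total counts alone, 6 were lower and 1 higher in Yap induction and 2 lower and 2 higher in the knockout. Acox2 turned to 0.29 in Yap induction, 0.39 in the knockout and 0.31 net of doxycycline, and knockout values turned to 0.089 for Cyp27a1, 0.23 for Baat, 0.028 for Nr5a2, 0.21 for Fgfr4 and 0.056 for Klb. With scaling to hepatocyte markers, 4 were lower and 3 higher in Yap induction, 2 lower and 3 higher in the knockout, 4 lower and 1 higher net of doxycycline, 0 lower net of the virus and 4 higher in the knockout less Yap induction. Under it Yap induction values turned to 0.28 for Cyp8b1, 0.57 for Akr1d1, 1.05 for Acox2, 0.52 for Baat, 0.080 for Cyp2c70, 0.37 for Nr1h4, 0.55 for Nr5a2, 0.39 for Hnf4a, 0.76 for Fgfr4 and 0.34 for Klb. Knockout values turned to 0.074 for Cyp8b1, 0.33 for Cyp27a1, 0.61 for Acox2, 0.013 for Slc27a5, 0.47 for Baat, 0.21 for Cyp2c70, 0.049 for Nr0b2, 0.145 for Nr1h4, 0.24 for Nr5a2, 0.067 for Hnf4a, 0.43 for Fgfr4 and 0.28 for Klb. Net of doxycycline, Akr1d1 turned to 0.099, Acox2 to 0.98 and Baat to 0.37, and in the knockout less Yap induction Cyp8b1 turned to -0.20, Acox2 to -0.44 and Baat to -0.052. With only the compared groups, 2 enzymes were higher with the virus alone, beside 278 of 10673 genes. Net of the virus 2 were lower, beside 1363 of 11866 genes. In floxed controls 2 were lower and 1 higher, beside 316 and 507 of 10494 genes.

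With 1 library left out, 2 to 8 enzymes were lower in the knockout, beside 1362 to 2524 of all genes. Net of the virus 1 to 7 were lower, beside 977 to 1771 of all genes. Values that turned round ranged from -0.31 to 0.11 for Acox2 and -0.22 to 0.31 for Akr1d1 and -0.035 to 0.64 for Ugt2b1 in the knockout, -0.86 to 1.78 for Cyp7a1 in the knockout less Yap induction, and -0.43 to 0.075 for Amacr with doxycycline alone, where it was 0.090 without BL/6 Dox libraries 1 and 2 together. Deviations of same-numbered libraries from their group means correlated at -0.233 to 0.238. Floxed control libraries 1, 2 and 4 correlated best with the BL/6 ctrl library of their own number. With 3 or 4 libraries per group, these values cannot tell whether the numbers pair libraries. The replicate block gave 2 enzymes lower net of the virus, beside 1367 of 12970 genes, and Cyp7a1 there was -3.06 (edgeR, adjusted p = 0.0458). With this block Acox2 in the knockout less Yap induction lost its call at 0.55 (edgeR, adjusted p = 0.0666).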
